A study of Mus musculus with 9 samples.

Results

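The 8 genes described here repair the DNA lesions that methylating carcinogens leave or the mismatches that follow replication: *Msh6*, *Msh3*, *Pms2*, *Mlh3*, *Pms1* and *Exo1* of mismatch repair, and *Mgmt* and *Mpg*, which act on methylated bases directly. They were listed by symbol, for their function and for the alkylating carcinogen used in the study. They are 8 of the 46095 gene symbols in the deposited count table, and all 8 passed the filter on low counts that left 14593 genes for the test. Other genes of mismatch repair are not reported here.

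RNA-seq was performed on intestinal epithelial cells (IECs) that had been released with EDTA from the colon of 4 Smad4 Vil-KO mice and 5 Smad4 Vil-KO;Setd2 Vil-KO mice, called single-knockout and double-knockout mice below and numbered by their replicate. Both genotypes carry floxed alleles deleted by Cre recombinase under the Villin promoter, which is active in the intestinal epithelium, so that cells of other types in a preparation keep the genes. All mice lacked Smad4 in this epithelium and all received azoxymethane (AOM, 10 mg/kg, at 8 weeks of age) and 1 course of 2% dextran sulfate sodium (DSS) in the drinking water, with IECs taken at 10 days. The single-knockout mice were thus the control for the loss of Setd2, and no untreated or wild-type mice were analysed here.

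As background, AOM is turned into a methylating agent that puts methyl groups on the bases of DNA. O6-methylguanine pairs with thymine during replication, and Mgmt removes its methyl group in a single reaction that also inactivates the protein. Where the lesion is copied before it is reversed, the mismatch is recognised by a MutS dimer that contains Msh6, a MutL dimer that contains Pms2 nicks the new strand, Exo1 degrades that strand from the nick, and the gap is filled by the replication machinery. N-methylated purines are instead cut out by the glycosylase Mpg, which starts base excision repair. Setd2 trimethylates H3K36, and Msh6 carries a PWWP domain that reads this mark, which is why the genes of this pathway are of interest where Setd2 is deleted. All values below are RNA levels, and in bulk RNA fewer cells of a type and less RNA per cell cannot be told apart.

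The total count per library was 12487129 to 17120202, and 1 count came to 0.0594 to 0.0794 CPM (the usual per-library scaling of counts, with TMM factors). *Setd2*, the deleted gene, was at 113 ± 9.45 CPM (SD, n = 4) in single-knockout and 66.1 ± 14.7 (SD, n = 5) in double-knockout libraries, and differed by -0.77 ± 0.14 on the log2 scale (SE; edgeR's quasi-likelihood test, Benjamini-Hochberg adjusted p = 0.00756), with no overlap between the genotypes. *Smad4*, floxed in both, was at 64.2 ± 19.0 and 70.3 ± 34.4 CPM, and its log2 fold change was 0.13 ± 0.33 (adjusted p = 0.819), with -0.71 as its lowest value among the other settings tried. Colonic epithelium was represented by *Krt8* at 4704 and 4303 CPM and by *Muc2*, the secreted mucin of goblet cells, at 6143 and 2003 CPM (-1.62 on the log2 scale with adjusted p = 0.000542). The 10 colon epithelium markers summed to 17343 to 21411 CPM in single-knockout and 12279 to 17244 CPM in double-knockout libraries. Of the 10, 1 was called by edgeR, 2 by DESeq2 and 2 by limma-voom. Over all genes 13.3%, 15.2% and 20.1% were called by these 3 tools, which is the background of the marker lists. The 10 markers of small intestine enterocytes summed to 204.5 to 309.0 CPM in single-knockout libraries and to 1056, 1350, 766, 1406 and 382 CPM in double-knockout mice 1 to 5. Of these markers 8 were called higher by edgeR, beside 6.76% of all genes. Among them was *Slc10a2*, the ileal bile acid transporter, at 18.5 and 204 CPM. The apolipoprotein *Apob*, at 188 and 343 CPM, was not called (adjusted p = 0.119 by edgeR's quasi-likelihood test). The 12 leukocyte markers summed to 67.8 to 178 and 56.3 to 141 CPM, with none called by edgeR, DESeq2 or limma-voom and 0 (edgeR and limma-voom) or 1 (DESeq2) at an unadjusted p under 0.05, and the 9 stroma markers to 12.8 to 29.4 and 20.3 to 60.5 CPM, with 0 of 5 tested called by edgeR (2 at an unadjusted p under 0.05), 0 by limma-voom and 2 of 9 by DESeq2. An unadjusted p under 0.05 by edgeR was found for 30.6% of all genes. No marker of these lists was at 0 in all 9 libraries. The part of these markers in the values of the repair genes was not tested. More than 1000 Y-linked counts were found in 3 libraries, those of double-knockout mice 1, 2 and 5, so that sex and genotype were only partly separable.

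In the double-knockout mice, *Pms1* was the gene of the 8 that passed the test, at 1.70 times its level in single-knockout mice. *Pms2* stood higher in every double-knockout library than in every single-knockout library, at 1.27 times the level, without passing the test. *Msh6*, *Msh3*, *Mlh3*, *Exo1*, *Mgmt* and *Mpg* did not pass the test, and the levels of each overlapped between the genotypes. The 1 call of 8 (12.5%) stands against 13.3% of all 14593 genes called (6.76% higher and 6.54% lower), and the 1 gene of 8 with no overlap between genotypes against 17.2% of all genes (8.34% with every double-knockout library above and 8.87% with every one below). The sign of the log2 fold change was positive for 7 of the 8, with a median of 0.17 beside -0.00 over all genes tested, and 2 of the 8 had an unadjusted p under 0.05 beside 30.6% of all genes.

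**Figure D1:**
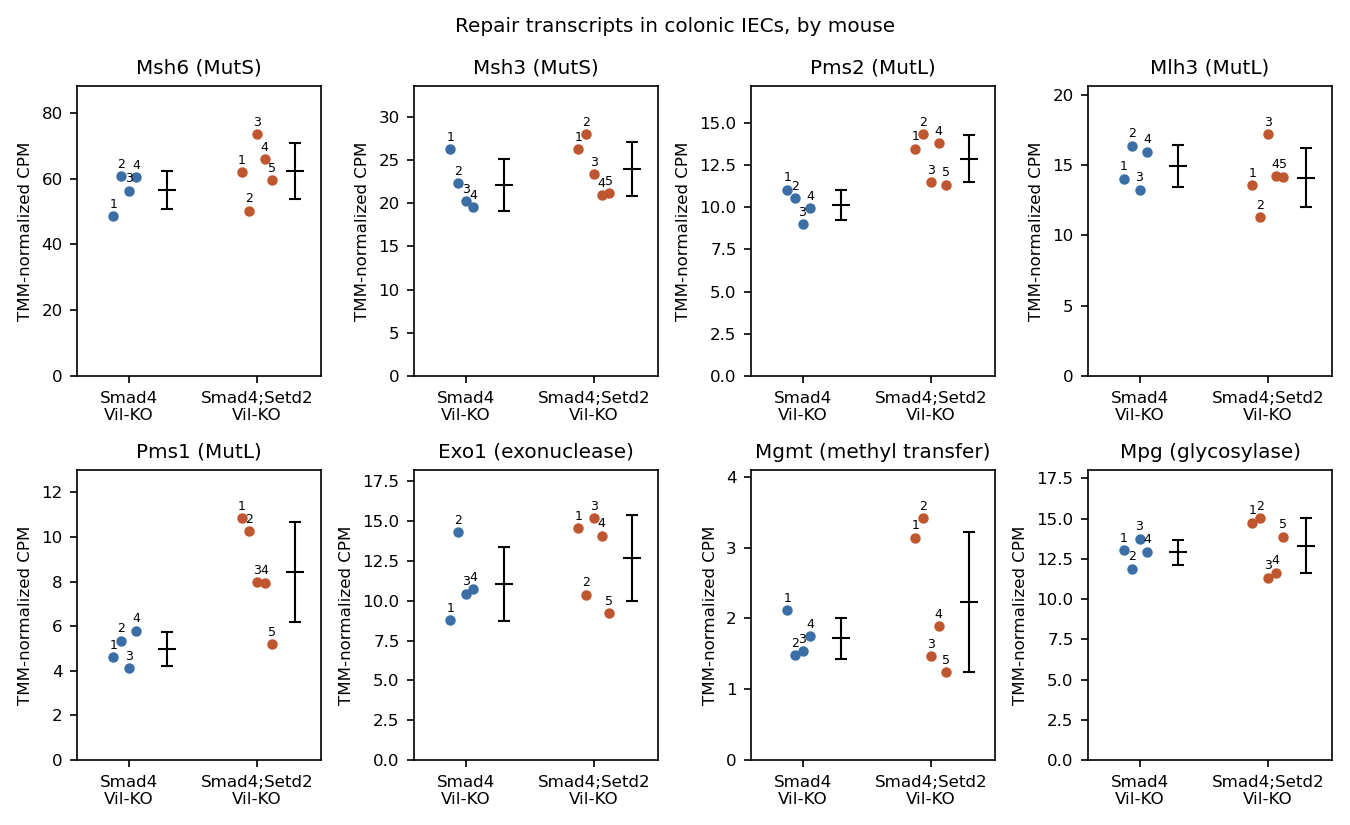
Level of each of the 8 repair genes in every library (y axis, CPM with TMM factors, from 0; x axis, genotype, 4 single-knockout and 5 double-knockout mice). Each dot is a mouse, numbered by replicate, and the bar is the mean ± SD. *Pms2* is the gene without overlap between genotypes, and *Pms1* is at 4.11 to 5.80 CPM in single-knockout mice and at 5.20 to 10.8 CPM in double-knockout mice.

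For a comparison of levels between genes, the CPM were divided by the length of the annotated exons of each gene (GENCODE, GRCm38). Per kilobase, *Msh6* was the most abundant, at 13.3 ± 1.33 CPM per kb (SD, n = 4) in single-knockout and 14.6 ± 2.01 (SD, n = 5) in double-knockout libraries. *Mpg* came next at 7.43 ± 0.444 and 7.67 ± 0.997 CPM per kb, and *Msh3* followed at 5.44 ± 0.742 and 5.90 ± 0.764. The ranges of these neighbouring levels did not overlap in single-knockout libraries, while those of *Mpg* (6.52 to 8.64 CPM per kb) and *Msh3* (5.16 to 6.89) did in double-knockout libraries. *Mlh3* was at 2.68 ± 0.270 and 2.54 ± 0.378 CPM per kb. *Pms2* (1.84 ± 0.162), *Pms1* (1.63 ± 0.245) and *Exo1* (1.42 ± 0.299) overlapped in single-knockout libraries. In double-knockout libraries *Pms1* averaged 2.76 ± 0.732 CPM per kb, and its range overlapped those of *Mlh3* and *Pms2* (2.35 ± 0.251), and *Exo1* averaged 1.63 ± 0.344. *Mgmt* was the least abundant at 0.595 ± 0.0992 and 0.771 ± 0.342 CPM per kb. No test was made of these differences between genes.

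The MutS dimers that detect mismatches differ in their second subunit. *Msh6* (chr17:87975062-87990892, plus strand) encodes the subunit for single-base mismatches, including O6-methylguanine paired with thymine. Its level in single-knockout mice 1 to 4 was 48.6, 60.8, 56.4 and 60.4 CPM, and in double-knockout mice 1 to 5 it was 62.0, 50.2, 73.5, 65.9 and 59.6 CPM. Double-knockout mice 1, 3 and 4 lay above every single-knockout library, and mice 2 and 5 lay within the single-knockout range. The log2 fold change was 0.14 ± 0.11 (SE; 95% interval -0.11 to 0.39; edgeR's quasi-likelihood test, adjusted p = 0.438). *Msh3* (chr13:92211872-92355003, minus strand) encodes the subunit for larger insertion or deletion loops. It was at 26.2, 22.3, 20.3 and 19.5 CPM in single-knockout mice and at 26.2, 28.0, 23.4, 20.9 and 21.2 CPM in double-knockout mice, so that the ranges lay over each other. Its log2 fold change was 0.11 ± 0.13 (95% interval -0.16 to 0.39, adjusted p = 0.573). With 706 to 1051 counts for *Msh6* and 246 to 409 for *Msh3* per library, both intervals still hold a rise of 0.39 on the log2 scale. With the libraries with more than 1000 Y-linked counts left out, the values were 0.31 (adjusted p = 0.0671) for *Msh6* and 0.0066 (adjusted p = 0.981) for *Msh3*.

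Since both subunits compete for the same partner, their ratio within each library was compared as well, which needs no scaling between libraries. *Msh6* over *Msh3* was 1.85, 2.72, 2.78 and 3.09 in single-knockout mice and 2.36, 1.80, 3.15, 3.15 and 2.82 in double-knockout mice. Each genotype had one library with a low ratio, single-knockout mouse 1 and double-knockout mouse 2. The difference in mean log2 ratio was 0.02 (two-sided exact permutation test, p = 0.905), and its sign turned without any of 4 of the libraries in turn, being -0.14 without single-knockout mouse 1. In the 6 libraries with no more than 1000 Y-linked counts it was 0.29, with no test. The meiotic relatives *Msh4* and *Msh5* were not expressed at a testable level, with 0 to 2 counts per library for *Msh4* and 0 in all libraries for *Msh5*, where 3 counts correspond to at most 0.238 CPM.

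The MutL genes held both members whose intervals lay above 0. *Pms1* (chr1:53189187-53297018, minus strand) encodes a MutL subunit that forms a dimer without nicking activity and whose role in mismatch repair is minor. It was at 4.62, 5.35, 4.11 and 5.80 CPM in single-knockout mice 1 to 4. In double-knockout mice 1 to 5 it was at 10.8, 10.2, 7.97, 7.94 and 5.20 CPM. Double-knockout mice 1 to 4 were all above the single-knockout range, and mouse 5 lay inside it. The means were 4.97 ± 0.748 (SD, n = 4) and 8.44 ± 2.23 CPM (SD, n = 5). This gave 0.77 ± 0.22 (SE; 95% interval 0.27 to 1.26) on the log2 scale, with a Benjamini-Hochberg adjusted p of 0.0454 by edgeR's quasi-likelihood test. Counts were 67 to 169 per library. DESeq2 (adjusted p = 0.0112) and limma-voom (adjusted p = 0.0280) gave the same call. The call depended on single libraries: without single-knockout mouse 1, 2, 3 or 4 or double-knockout mouse 1, 2, 3 or 4 in turn it was lost (log2 fold change 0.66 to 0.84, adjusted p 0.0651 to 0.132), and without double-knockout mouse 5 it was 0.91 (adjusted p = 0.00958). Adding to the fit whether a library had over 1000 Y-linked counts (the Y-linked term) left 0.68 (adjusted p = 0.162), while the 6 libraries with no more than 1000 gave 0.69 (adjusted p = 0.0377).

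*Pms2* (chr5:143909964-143933968, plus strand) encodes the subunit with the nicking activity that mismatch repair needs. It was at 11.0, 10.5, 8.97 and 9.92 CPM in single-knockout mice and at 13.5, 14.3, 11.5, 13.8 and 11.3 CPM in double-knockout mice. No double-knockout library fell to the level of the highest single-knockout library, although the gap was narrow. The means were 10.1 ± 0.888 and 12.9 ± 1.38 CPM, and the log2 fold change was 0.35 ± 0.13 (95% interval 0.07 to 0.63; unadjusted p = 0.0200, adjusted p = 0.0959 by edgeR's quasi-likelihood test). In all 18 other settings it kept this sign, between 0.30 and 0.40, and was not called in any. *Mlh3* (chr12:85234520-85270599, minus strand) encodes a further subunit, known mainly from meiotic crossovers. It was at 14.1, 16.4, 13.3 and 16.0 CPM in single-knockout and at 13.6, 11.3, 17.2, 14.2 and 14.2 CPM in double-knockout mice, with both the lowest and the highest library among the latter. Its log2 fold change of -0.08 ± 0.14 (95% interval -0.38 to 0.22, adjusted p = 0.725) turned to 0.08 with the Y-linked term.

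The 3 MutL genes share 1 partner, and their ratios were therefore compared within libraries. *Pms2* over *Mlh3* was 0.622 to 0.785 in single-knockout mice and 0.991, 1.26, 0.667, 0.967 and 0.798 in double-knockout mice 1 to 5, with 4 of 5 above every single-knockout library. The difference in mean log2 ratio was 0.43 (two-sided exact permutation test, p = 0.0556, adjusted over the 3 ratios 0.131), and 0.24 in the 6 libraries with few Y-linked counts, with no test. *Pms2* over *Pms1* was 1.71 to 2.39 in single-knockout mice and 1.24, 1.40, 1.44, 1.73 and 2.18 in double-knockout mice, with 3 of 5 below every single-knockout library. The difference of -0.39 gave an exact permutation p of 0.0873 (adjusted 0.131). The smallest p that 4 against 5 libraries allow is 0.00794. Neither ratio had an adjusted p under 0.05, so neither was shown to differ.

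**Figure D2:**
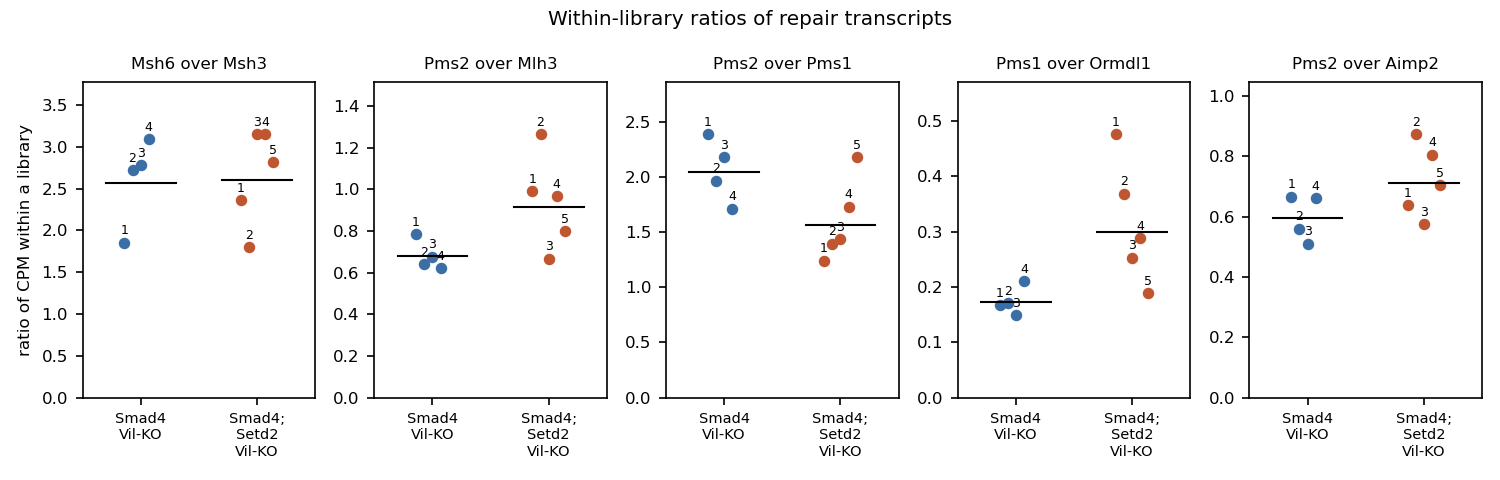
Within-library ratios of CPM (y axis, linear from 0) in 4 single-knockout and 5 double-knockout mice (x axis). Each dot is a mouse and the line is the geometric mean. The ratio of *Msh6* to *Msh3* covers 1.85 to 3.09 in single-knockout and 1.80 to 3.15 in double-knockout mice, while *Pms1* relative to its neighbour *Ormdl1* is 0.150 to 0.211 in single-knockout and 0.189 to 0.476 in double-knockout mice.

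*Exo1* (chr1:175880581-175913489, plus strand), the exonuclease that removes the nicked strand and a gene of cycling cells, was at 8.79, 14.3, 10.4 and 10.7 CPM in single-knockout and at 14.5, 10.4, 15.2, 14.1 and 9.23 CPM in double-knockout mice. Double-knockout mice 1, 3 and 4 stood together with single-knockout mouse 2, and the others lay lower. The log2 fold change was 0.20 ± 0.19 (95% interval -0.23 to 0.62, adjusted p = 0.518 by edgeR's quasi-likelihood test). The coefficient of variation was 21.1% and 21.2% in the 2 genotypes where counting alone gives 7.65% and 7.50%, so that most of its spread lay between mice.

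*Mgmt* (chr7:136894614-137130266, plus strand) encodes the methyltransferase for O6-methylguanine and had the fewest reads, with 16 to 49 counts per library. It was at 2.12, 1.49, 1.54 and 1.75 CPM in single-knockout mice and at 3.14, 3.42, 1.47, 1.89 and 1.24 CPM in double-knockout mice. Double-knockout mice 1 and 2 were above all single-knockout libraries, and mice 3 and 5 were below all of them. The coefficient of variation was 16.7% in single-knockout mice, where counting alone gives 19.5%, and 44.3% in double-knockout mice, where counting gives 17.8%. The log2 fold change was 0.38 ± 0.34 (95% interval -0.37 to 1.13, adjusted p = 0.476 by edgeR's quasi-likelihood test), and it was -0.038 with the Y-linked term. The interval holds a fall of 0.37 as well as a rise of 1.13 on the log2 scale.

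*Mpg* (chr11:32226505-32232700, plus strand), the glycosylase for 3-methyladenine, was at 13.0, 11.9, 13.8 and 12.9 CPM in single-knockout mice and at 14.7, 15.0, 11.3, 11.6 and 13.9 CPM in double-knockout mice. Double-knockout mice lay on both sides of the narrow single-knockout range. The log2 fold change was 0.05 ± 0.13 (95% interval -0.23 to 0.32, adjusted p = 0.832 by edgeR's quasi-likelihood test), and its sign turned in 3 of the 18 other settings.

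**Figure D3:**
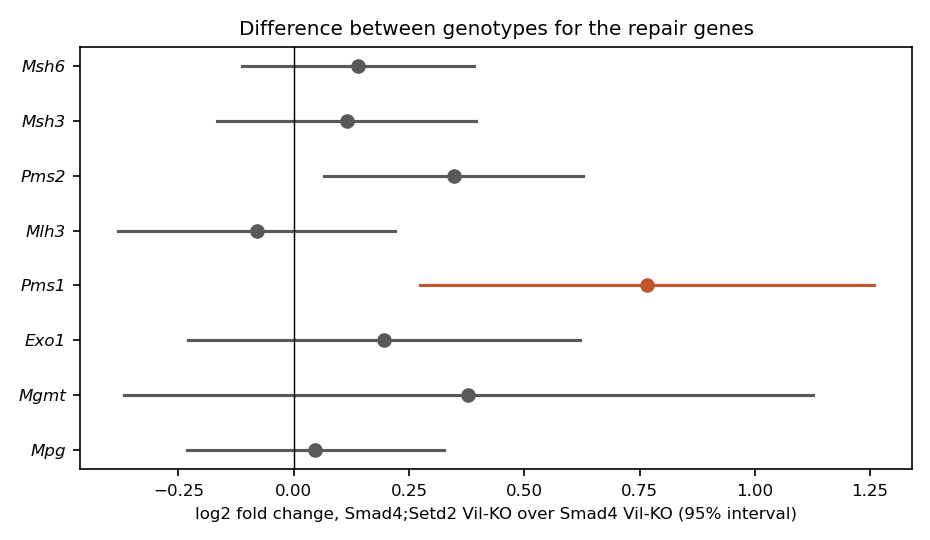
Log2 fold change of each repair gene, double-knockout over single-knockout (x axis), with its 95% interval from edgeR's quasi-likelihood test over 4 and 5 mice (y axis, genes). The intervals of *Pms1* (0.27 to 1.26) and *Pms2* (0.07 to 0.63) lie above 0, and the other 6 include it.

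The promoters of *Pms1* and *Pms2*, the members whose intervals lay above 0, are shown. Each of these MutL genes starts head to head with another gene, so that 1 stretch of DNA serves both directions. The start of *Ormdl1*, a regulator of sphingolipid synthesis, lies 63 bases from that of *Pms1*, and the start of *Aimp2*, a scaffold of tRNA synthetases, lies 61 bases from that of *Pms2*. The windows run from 250 bases before to 50 bases after the RefSeq start (GRCm38.p6), are written 5′ to 3′ on the strand of the repair gene, and were found for 7 of the 8 genes. Capitals mark CCAAT (reverse ATTGG), present in 37.4% of 32851 promoters on either strand, GGGCGG (reverse CCGCCC), present in 35.7%, and the E2F motifs TTTCCCGC (reverse GCGGGAAA) and TTTGGCGC (reverse GCGCCAAA), of which either was present in 1.56%. Neighbouring matches of the same motif can overlap.
Pms1 (chr1:53296979-53297278, minus strand): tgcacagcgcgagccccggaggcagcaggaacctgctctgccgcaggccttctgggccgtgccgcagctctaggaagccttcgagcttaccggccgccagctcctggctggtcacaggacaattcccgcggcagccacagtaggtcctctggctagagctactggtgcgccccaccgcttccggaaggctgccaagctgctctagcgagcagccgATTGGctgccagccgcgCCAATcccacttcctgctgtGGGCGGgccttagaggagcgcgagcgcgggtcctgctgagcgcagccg
Pms2 (chr5:143909751-143910050, plus strand): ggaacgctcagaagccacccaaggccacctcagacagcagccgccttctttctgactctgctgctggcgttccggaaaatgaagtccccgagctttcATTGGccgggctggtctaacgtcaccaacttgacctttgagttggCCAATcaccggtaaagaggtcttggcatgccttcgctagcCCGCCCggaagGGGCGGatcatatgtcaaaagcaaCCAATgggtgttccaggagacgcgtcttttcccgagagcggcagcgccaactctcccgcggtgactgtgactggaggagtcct

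The window of *Pms1* held 2 CCAAT motifs and 1 GGGCGG, and that of *Pms2* held 3 and 2. Neither held an E2F motif. The MutS genes are shown for comparison, as the 2 members with such a motif.
Msh3 (chr13:92354954-92355253, minus strand): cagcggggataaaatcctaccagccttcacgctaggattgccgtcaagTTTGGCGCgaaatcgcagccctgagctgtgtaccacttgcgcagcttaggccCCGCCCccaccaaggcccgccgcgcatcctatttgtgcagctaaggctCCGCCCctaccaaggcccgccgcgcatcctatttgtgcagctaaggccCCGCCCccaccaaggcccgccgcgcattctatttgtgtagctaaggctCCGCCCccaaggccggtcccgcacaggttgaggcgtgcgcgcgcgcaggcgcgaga
Msh6 (chr17:87974800-87975099, plus strand): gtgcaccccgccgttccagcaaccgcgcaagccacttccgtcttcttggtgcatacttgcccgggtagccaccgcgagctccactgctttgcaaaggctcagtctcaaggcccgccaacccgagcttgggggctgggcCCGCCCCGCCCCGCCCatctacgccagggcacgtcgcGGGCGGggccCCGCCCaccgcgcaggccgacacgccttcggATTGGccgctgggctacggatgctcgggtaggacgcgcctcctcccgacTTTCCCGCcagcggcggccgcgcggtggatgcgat

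The window of *Msh3* held TTTGGCGC once and 4 GGGCGG motifs. The window of *Msh6* held TTTCCCGC once, 1 CCAAT and 5 GGGCGG motifs. These matches describe the letters only, and no binding was measured. They contained 29 and 37 CpG dinucleotides, *Pms1* contained 25 and *Pms2* 19, where the median of all promoters was 7.

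The genes on the other side of these promoters were read from the same fit. *Ormdl1* was at 28.5 ± 1.90 and 27.4 ± 3.12 CPM (-0.05 ± 0.10 on the log2 scale, adjusted p = 0.760 by edgeR's quasi-likelihood test), beside the rise of *Pms1*. The ratio of *Pms1* to *Ormdl1*, chosen after the data were seen, was 0.150 to 0.211 in single-knockout mice and 0.476, 0.368, 0.253, 0.289 and 0.189 in double-knockout mice 1 to 5. The difference in mean log2 ratio was 0.79 (two-sided exact permutation test, p = 0.0317, adjusted over 3 such ratios 0.0952), which does not pass the threshold after adjustment. *Aimp2* was at 17.0 ± 1.60 and 18.1 ± 2.27 CPM (0.09 ± 0.12 on the log2 scale, adjusted p = 0.640), and *Pms2* over *Aimp2* differed by 0.26 on the log2 scale (exact permutation p = 0.135).

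Of the 16 genes annotated nearest to the members on either side, 9 were tested and 2 were called, both higher, where 13.3% of all genes were called and 6.76% were called higher. *Rasgrf2*, a guanine nucleotide exchange factor of Ras that lies 80049 bases from *Msh3*, rose from 5.41 ± 1.66 to 13.2 ± 2.47 CPM (1.29 ± 0.24 on the log2 scale, adjusted p = 0.00706 by edgeR's quasi-likelihood test). *Eif2b2*, a subunit of a translation initiation factor beside *Mlh3*, rose from 41.0 ± 2.28 to 49.2 ± 2.81 CPM (0.26 ± 0.08, adjusted p = 0.0471). Of the rest, *Fbxo11* beside *Msh6* (0.03, adjusted p = 0.864), *Acyp1* beside *Mlh3* (-0.02, adjusted p = 0.979), and *Rhbdf1* (-0.17, adjusted p = 0.291) and *Nprl3* (-0.14, adjusted p = 0.537) on the sides of *Mpg* did not pass. *Nprl3* overlaps *Mpg* by 740 bases and *Fbxo11* overlaps *Msh6* by 34, and whether the counting used strand is not given in the sources used here, so reads in these stretches cannot be assigned with certainty.

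By their profile over the 9 libraries, genes among the 3 most like *Pms1* were *Prkd3*, a protein kinase D, and the predicted gene *Gm3325*. Their root mean square difference to *Pms1* in centred log2 CPM was 0.0909 and 0.140. Both were called higher, by 0.74 ± 0.18 and 0.84 ± 0.21 on the log2 scale (adjusted p of 0.0232 and 0.0232 by edgeR's quasi-likelihood test). This likeness is a description over 9 libraries that include the contrast itself.

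The partners of these genes were read from lists chosen by function. Of the replication factors that fill the gap in mismatch repair, 13 of 14 were tested and 10 had a positive sign, with a median log2 fold change of 0.18. None was called by edgeR's quasi-likelihood test or by DESeq2, 1 was called by limma-voom, and 2 had an unadjusted p under 0.05. Over all genes these shares were 13.3%, 15.2%, 20.1% and 30.6%, and they are the background of the lists that follow. Without double-knockout mouse 5, edgeR called 2 of the 13, beside 18.6% of all genes. In the 6 libraries with no more than 1000 Y-linked counts it called 3, beside 19.4%. *Pcna*, the sliding clamp that also carries Msh6 to the fork, was at 106, 110, 112 and 104 CPM in single-knockout mice and at 159, 127, 146, 136 and 102 CPM in double-knockout mice (log2 fold change 0.31 ± 0.11, adjusted p = 0.0920), and *Pold2*, a subunit of DNA polymerase delta, had the largest value of the list (0.32, adjusted p = 0.146). Double-knockout mouse 5 was the exception for *Pcna*, as it was for *Pms1*.

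Among the partner lists that act on DNA, edgeR without covariates over all 9 libraries called genes only in base excision repair, which Mpg starts. Of the 10 genes that complete it, 3 were called (30.0%, beside 13.3% of all genes), 2 higher and 1 lower, with a median log2 fold change of 0.09. *Apex1*, the endonuclease that cuts the abasic site, was at 26.3, 33.6, 34.8 and 30.7 CPM in single-knockout and at 57.1, 40.0, 48.2, 47.3 and 39.5 CPM in double-knockout mice, with no overlap. Its log2 fold change was 0.57 ± 0.13 (adjusted p = 0.0179). *Parp2*, a sensor of strand breaks, rose from 33.0 ± 1.81 to 42.1 ± 3.62 CPM (0.35 ± 0.09, adjusted p = 0.0254), and *Xrcc1*, the scaffold of the ligation step, fell from 28.0 ± 4.17 to 20.4 ± 2.11 CPM (-0.46 ± 0.12, adjusted p = 0.0338), both without overlap. Of the 9 other DNA glycosylases tested, only *Neil1*, which removes oxidised bases, was called by edgeR's quasi-likelihood test, from 11.0 ± 0.525 to 6.46 ± 1.62 CPM (-0.77 ± 0.19, adjusted p = 0.0244), and the median was -0.03. This is 11.1% of the list, beside 13.3% of all genes, and limma-voom called 2 of the 9. These calls were lost in some settings, namely *Apex1* in 2 of 18 (without single-knockout mouse 1 or 4, adjusted p up to 0.0564), *Neil1* in 4 (without single-knockout mouse 1, 3 or 4, and with the Y-linked term), *Parp2* in 6 and *Xrcc1* in 9, with adjusted p up to 0.168, 0.122 and 0.113. For *Parp2* the libraries were single-knockout mice 1, 2 and 3, and for *Xrcc1* single-knockout mice 2, 3 and 4 and double-knockout mice 2, 3 and 4.

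Of the 4 genes that reverse alkylation or assist it, none was called by edgeR or DESeq2, 1 was called by limma-voom and 1 had an unadjusted p under 0.05 (over all genes 13.3%, 15.2%, 20.1% and 30.6%, in that order of tests). *Alkbh2*, a dioxygenase that demethylates bases in DNA, was at 5.77 ± 0.377 and 4.06 ± 1.06 CPM (-0.51 ± 0.21 on the log2 scale, adjusted p = 0.129 by edgeR's quasi-likelihood test), and the list's median was -0.25. Of the ATR checkpoint genes, 8 of 9 were tested, 6 with a positive sign (median 0.23), none called by edgeR, 1 by DESeq2 and 1 by limma-voom, with 3 at an unadjusted p under 0.05, against the same shares of all genes. Without double-knockout mouse 5, edgeR called 2 of the 8, beside 18.6% of all genes. It also called 2 in the 6 libraries with no more than 1000 Y-linked counts, beside 19.4%. *Atr*, the kinase that responds to such mismatches, was at 36.6 ± 3.85 and 48.4 ± 8.11 CPM (0.41 ± 0.13, adjusted p = 0.0697). Of the genes listed for AOM activation, *Cyp2e1*, the cytochrome, had 0 to 5 counts per library and was not tested. *Por*, the reductase that serves cytochromes, gave 0.42 (adjusted p = 0.161). *Adh1*, an alcohol dehydrogenase, was at 1330, 800, 1087 and 1201 CPM in single-knockout and at 239, 531, 604, 473 and 730 CPM in double-knockout mice, all of the latter lower. Its log2 fold change was -1.10 ± 0.26 (adjusted p = 0.0222), lost in 5 of 18 settings, which were the Y-linked term and those without single-knockout mouse 1, 3 or 4 or double-knockout mouse 4 (adjusted p up to 0.109).

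**Figure D4:**
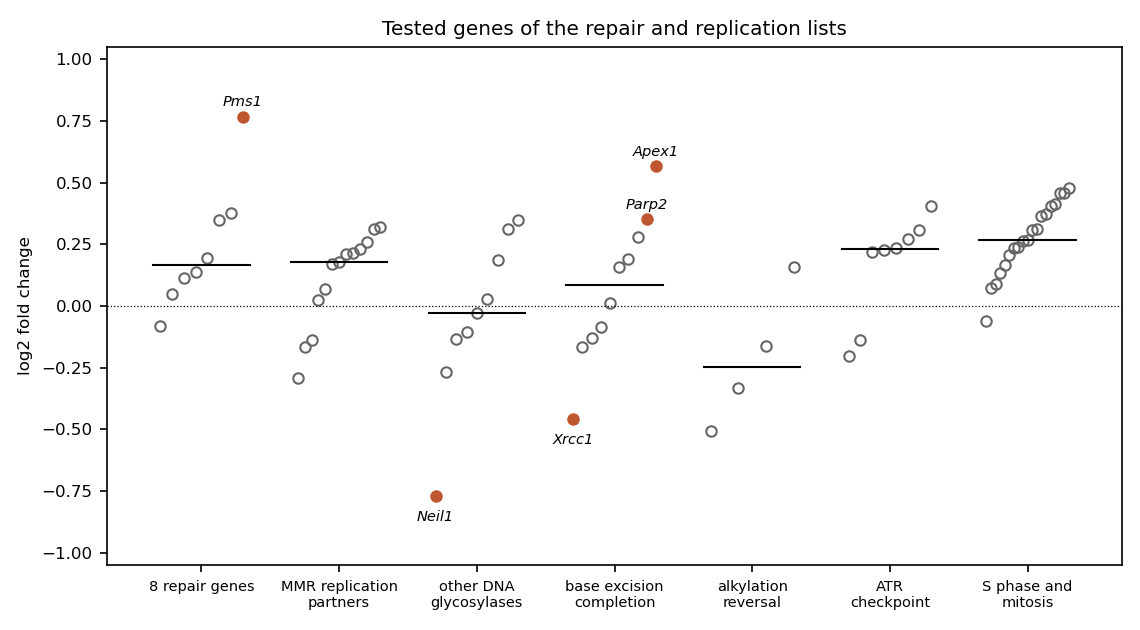
Log2 fold change, double-knockout over single-knockout (4 and 5 mice), of the tested genes of the repair, checkpoint and S phase lists (y axis, value, and x axis, list). Genes listed for AOM activation are not plotted. Each dot is a gene, filled and named where the adjusted p of edgeR's quasi-likelihood test is under 0.05, and the line is the list's median. Filled dots appear for *Pms1* among the members, for *Apex1*, *Parp2* and *Xrcc1* in base excision completion and for *Neil1* among the glycosylases.

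Several of the repair genes are transcribed most in dividing cells, and genes of S phase and mitosis were therefore read beside them. Of 19, all tested, 18 had a positive sign with a median log2 fold change of 0.27. None was called by edgeR's quasi-likelihood test, 7 had an unadjusted p under 0.05, all higher (beside 30.6% of all genes in either direction), and DESeq2 called 1 and limma-voom 2. Without double-knockout mouse 5, edgeR called 7 of them, beside 18.6% of all genes in that setting. In the 6 libraries with no more than 1000 Y-linked counts it called 8, beside 19.4%. *Rrm2*, a subunit of ribonucleotide reductase, had the largest value at 0.48 ± 0.18 (adjusted p = 0.103), with 62.4, 36.9, 56.8, 53.6 and 33.0 CPM in double-knockout mice 1 to 5 and 31.4 to 37.8 CPM in single-knockout mice. *Mki67*, the proliferation marker, was at 429 ± 44.6 and 495 ± 88.2 CPM (0.21 ± 0.13, adjusted p = 0.307). Double-knockout mouse 5 thus had the lowest value of its genotype for *Rrm2*, *Mki67*, *Pcna*, *Pms1*, *Pms2*, *Exo1* and *Mgmt*. It did not for *Msh6* (59.6 CPM, lowest 50.2), *Msh3* (21.2, lowest 20.9), *Mlh3* (14.2, lowest 11.3) and *Mpg* (13.9, lowest 11.3). The same mouse had the lowest sums of its genotype for the markers of small intestine enterocytes, leukocytes (56.3 CPM, beside 103 to 141) and stroma (20.3 CPM, beside 28.2 to 60.5). For the colon epithelium markers it had the highest sum of its genotype (17244 CPM). Without it, edgeR called 1 of 12 leukocyte markers, with 5 at an unadjusted p under 0.05, and 1 of 5 stroma markers. The part of any of these in the values of the repair genes was not tested.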

How the data were processed

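RNA-seq of IECs from 4 mice lacking Smad4 and 5 lacking Smad4 and Setd2 in the intestinal epithelium was analysed. The authors deposited whole-number counts per gene symbol, without normalization or pooling. Per the labels' processing notes HISAT2 2.0 and the build mm10 were used. The counting program, annotation and strand setting are not given in the sources used here. Depth per library was 12487129 to 17120202 counts. Among the members, *Mgmt* had the fewest counts and the widest interval. Replicates differed well past counting noise (chi-square per gene at least 9.92) and all 9 were kept as replicates.

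Genotypes came from the sample labels. With R 4.3.3, genes were filtered (filterByExpr), TMM-normalized and tested with edgeR 4.0.16 (quasi-likelihood, no covariates, Benjamini-Hochberg over 14593 genes, adjusted p under 0.05), and the whole table was fitted. The biological coefficient of variation was 21.2%. Intervals are 95% from the t distribution with 11.0 degrees of freedom. Ratios were tested by the exact permutation test over the 9 libraries. In simulated counts for this comparison (14382 genes), 24 of 67 genes changed 1.5-fold, 51 of 67 changed 2-fold and 60 of 66 changed 3-fold were recovered. Alternatives were DESeq2 1.42.0, limma-voom (limma 3.58.1), other scaling and filters, a minimum of 10 counts throughout, leaving out each library, the replicate number as a block, and Y-linked counts (limit 1000). Genes named were the members, *Setd2*, *Smad4* and *Mki67*, called members of each list (with none called, the largest change), for marker lists the 2 most abundant, tested neighbours and the 3 genes most like *Pms1* (log2 of CPM plus 0.1). Some genes under this rule, and 1 of the ratios, are not reported here, and *Pcna*, *Atr* and *Por* were named after their values were seen. The members and lists were chosen with earlier results of these data known, and the ratios to neighbouring genes after the data were seen. Gene spans and exon lengths are from GENCODE for GRCm38, promoters and neighbours from RefSeq.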

Additional observations from a re-analysis of the deposited data

How the results depend on the processing

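The log2 fold changes of *Msh3*, *Msh6*, *Pms2* and *Exo1* kept their sign and were not called in any of the 18 other settings, but their size moved, from 0.0023 (Y-linked term) to 0.21 (without single-knockout mouse 1) for *Msh3*, from 0.078 (without single-knockout mouse 1) to 0.31 (6 libraries with few Y-linked counts) for *Msh6* and from 0.11 to 0.41 in the same settings for *Exo1*, and from 0.30 to 0.40 for *Pms2*. *Pms1* kept its sign in all 18 (0.66 to 0.91) and its call in 7, so that the number of the 8 genes called was 0 with library size alone (adjusted p = 0.0530), with no filter on low counts (0.0574) and with the Y-linked term, and 0 to 1 with each library left out. *Mpg* turned to -0.042 with limma-voom, -0.17 with the Y-linked term and -0.16 in the 6 libraries with few Y-linked counts. In the last 2 settings *Mlh3* turned to 0.077 and 0.083 and *Mgmt* to -0.038 and -0.034. The cause was not tested. Over all genes, 1941 calls (986 higher) became 2927 with limma-voom, 1285 (653 higher) with the Y-linked term, 2930 with the low-Y libraries alone and 847 to 2696 (455 to 1380 higher) with each library left out, and DESeq2 called 1504 higher. The *Msh6* to *Msh3* difference ranged from -0.14 to 0.15 with each library left out and was 0.29 in the 6 libraries with few Y-linked counts. Same-numbered mice of the 2 genotypes did not deviate together (correlations -0.11, -0.12, 0.02 and 0.08), so the numbers pair nothing. With the replicate number as a block, 1618 genes were called, *Pms1* was at 0.90 (adjusted p = 0.0344) and the *Msh6* to *Msh3* difference was -0.011. *Mgmt* had the fewest counts of the 8 genes.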
